A study of Homo sapiens with 6 samples.

Results

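The C/EBP genes considered here were CEBPA, CEBPB, CEBPD, CEBPE and CEBPG, 5 of 20162 protein-coding genes of GENCODE release 44 on the numbered chromosomes, X and Y of GRCh37 (hg19). DEK peaks were assigned to a gene when they overlapped the gene body or the 50 kb on either side of it, so that distal regions were included. The 5 windows held 7 of the 15017 peaks of DEK replicate 1 and 83 of the 152779 peaks of replicate 2. A stretch covered by a peak of both replicates (an overlap of at least 1 bp) was taken as a shared interval, and 5 of 4435 shared intervals lay in these windows. U937, the cell line used, is an established human monocytic line derived from a histiocytic lymphoma, and the labels name no treatment, transgene or knockdown. DEK, a chromatin protein known from the DEK-NUP214 fusion of acute myeloid leukemia, was precipitated from crosslinked U937 chromatin in 2 samples, and the histone mark H3K4me3, which marks active promoters, in another 2. The 2 samples of non-precipitated chromatin were not analysed here. Every sample came from the same line, peak lists hold no expression by which its myeloid identity could be checked, and the study describes the DEK replicates as independent precipitations without saying whether they came from separate cultures. With 1 group of 2 replicates for DEK there was no contrast to test, and all counts below are descriptions. The sequencing depth is unknown from these lists. Peaks held 988363 tags (sequenced fragments) in replicate 1 and 4172422 in replicate 2, the median peak held 47 and 20 tags, and the deposited false discovery rate was 100% for every replicate 1 peak and 0.74% to 16.67% in replicate 2.

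C/EBP proteins are basic leucine zipper (bZIP) transcription factors that bind DNA as homodimers or heterodimers, and they are central regulators of myeloid differentiation. C/EBPα drives the step from common myeloid progenitors to granulocyte and monocyte progenitors and is mutated in acute myeloid leukemia. C/EBPβ acts in emergency granulopoiesis and macrophage gene expression, C/EBPδ in the acute-phase response, and C/EBPε in late neutrophil maturation. C/EBPγ lacks a transactivation domain of its own and acts largely as a dimer partner. The genes are compact, and regulatory elements far outside them, among them a myeloid enhancer downstream of CEBPA, are known to control their transcription.

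Shared intervals were found around CEBPA (2 intervals), CEBPB (1), CEBPE (1) and CEBPG (1), and around CEBPD none was found. The letters under the CEBPA intervals are shown because CEBPA had the most shared intervals and the highest replicate 1 tag count of the 5 genes. They are plus-strand sequences of GRCh37, each of 201 bases, with matches to any of 6 searched motifs in capitals. The window on the distal CEBPA interval, chr19:33751725-33751925, is centred midway between the summits of the 2 replicates. This choice was made after the values were seen because these summits lay 44 bp apart. The window of the nearer CEBPA interval is its middle at chr19:33771843-33772043.
CEBPA distal interval: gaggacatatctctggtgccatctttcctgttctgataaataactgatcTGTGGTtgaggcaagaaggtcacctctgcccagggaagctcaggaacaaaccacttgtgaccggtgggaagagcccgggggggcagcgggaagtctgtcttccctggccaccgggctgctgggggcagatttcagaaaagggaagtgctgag
CEBPA nearer interval: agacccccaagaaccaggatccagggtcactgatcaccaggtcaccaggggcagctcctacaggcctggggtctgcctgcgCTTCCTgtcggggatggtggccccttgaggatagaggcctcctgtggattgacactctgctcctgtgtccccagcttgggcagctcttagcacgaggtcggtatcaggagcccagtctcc

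The motifs were searched on both strands: TTGCNNAA for C/EBP itself, AGGAAG for PU.1, GGGCGG for SP1, TGTGGT for RUNX1, CACGTG for USF1 and TGANTCA for AP-1, and no matches overlapped. The distal CEBPA window held 1 TGTGGT on the plus strand, starting at base 50. The nearer CEBPA window held 1 AGGAAG on the minus strand, read as CTTCCT from base 82. The middle of the distal CEBPA interval and that of the CEBPE interval held no match to any of the 6. Among the 201-base middles of all 4435 shared intervals, TTGCNNAA occurred in 5.75%, AGGAAG in 20.0%, GGGCGG in 17.2%, TGTGGT in 15.6%, CACGTG in 3.99% and TGANTCA in 4.83%. Matches of this kind describe letters in a window and say nothing of binding by the factor. All 31-base words of both CEBPA windows occurred once in the genome, but this was a condition for showing an interval window and not a result. The median over the middles of all shared intervals was 90.1%. GC content was 62.2% at the nearer CEBPA window and 64.7% at the middle of the distal interval. Over the middles of all shared intervals the median was 54.7%, with quartiles of 49.8% and 59.2%. The distal window shown had 56.2%, but as a summit window it has no like background here, which holds for its TGTGGT too.

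CEBPA (ENSG00000245848, chr19:33790840-33793440, minus strand) had the most replicate 1 peaks of the 5 genes. All 3 lay downstream of the gene. The outermost, at chr19:33749345-33753186, had its middle 42175 bp from the gene start and held 315 tags, more than 99.1% of the peaks of that list, at a fold enrichment of 7.03. MACS gives each peak a score that is the negative log10 p-value multiplied by 10. Here it was 55.8, and 22.5% of the list had a lower one. The other peaks held 118 tags at chr19:33770316-33772357 and 141 tags at chr19:33782938-33785517. In sum the window held 574 replicate 1 tags, more than 98.3% of the windows of all protein-coding genes. In replicate 2 it held 14 peaks with 1051 tags, more than 88.4% of the windows, and 24.6% of its length was covered by peaks, against 8.25% in replicate 1. CEBPA was thus high in tags in both replicates.

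The shared CEBPA intervals were chr19:33751329-33753186 and chr19:33771530-33772357. In the distal interval, of 1858 bp, a replicate 1 peak of 315 tags met a replicate 2 peak of 87 tags with a score of 162, and the summits lay 44 bp apart. In the nearer interval, of 828 bp, the peaks held 118 and 121 tags with scores of 76.1 and 169, and the summits lay 1474 bp apart. The interval held the replicate 1 summit and only the flank of the replicate 2 peak. Both intervals were intergenic, and the nearest annotated transcription start site (TSS) was that of the gene ENSG00000270212, at 24388 bp and 4702 bp. The peak of replicate 2 with the highest tag count around CEBPA, at chr19:33788170-33792558, covered the 3' part of the gene. It held 221 tags, more than 99.7% of the list, and its score was 651. No replicate 1 peak overlapped it. The third replicate 1 peak, with its middle 9213 bp downstream of the start, met no replicate 2 peak either. By tags, the strongest CEBPA peak of replicate 1 and that of replicate 2 were thus in different places.

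**Figure D1:**
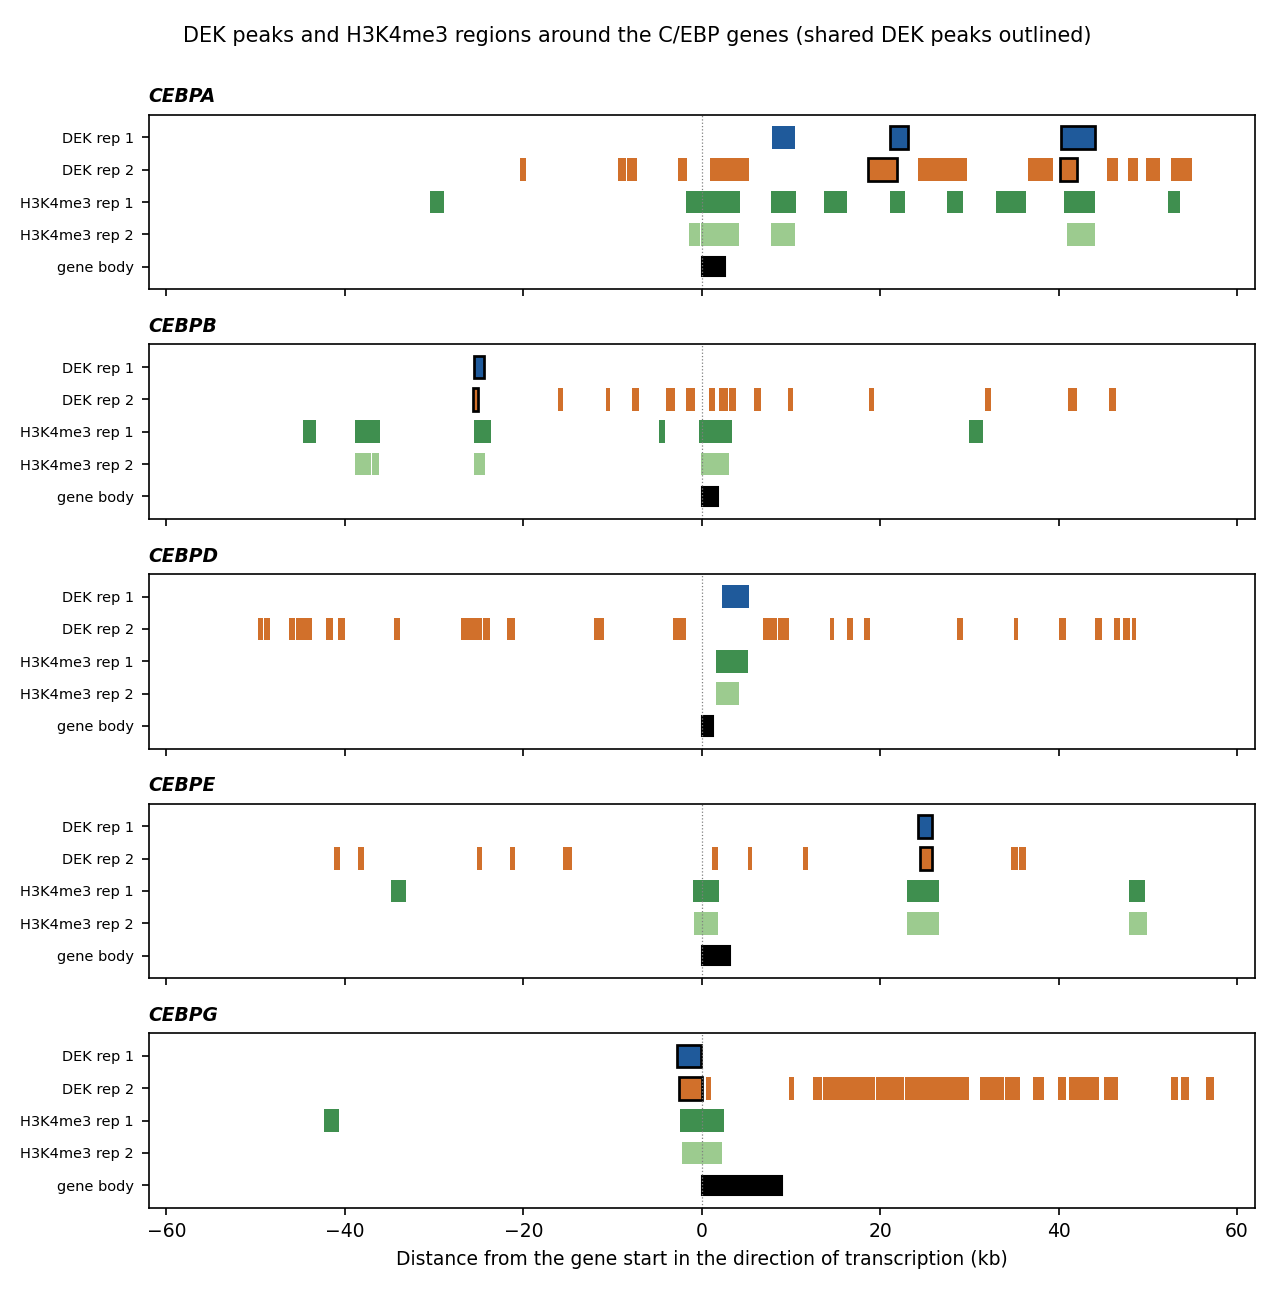
Peaks of the 2 DEK replicates and H3K4me3 regions of its 2 replicates around each C/EBP gene, against distance from the gene start in kb, positive in the direction of transcription. Black outlines mark DEK peaks that the other replicate met. The 3 replicate 1 peaks of CEBPA lie downstream of it, the one of CEBPG just before its start, and the one of CEBPD downstream of it with no replicate 2 peak.

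CEBPG (ENSG00000153879, chr19:33864591-33873592, plus strand) lies on the same chromosome as CEBPA, and their windows overlapped by 28850 bp, a stretch that held 0 DEK peaks. CEBPG was the gene whose shared interval lay nearest to its own start. The interval, chr19:33862052-33864524 (2473 bp), ended 67 bp before the gene start and had its middle 1303 bp upstream of it. The replicate 1 peak held 180 tags at a score of 229 and the replicate 2 peak 119 tags at a score of 344. The lower of these scores was above that of 99.0% of all shared intervals. The summits lay at -1047 bp and -455 bp from the start, 592 bp apart. The 250 bases before the start, at chr19:33864341-33864590 on the plus strand, lay mostly within this interval and are shown because CEBPG was the only one of the 5 genes whose shared interval reached this stretch. Their GC content was 74.0%, and they held no match to the 6 motifs. Among the 250 bases before all protein-coding genes, GGGCGG occurred in 48.7%, AGGAAG in 27.8% and the other motifs less often. High GC was not particular to CEBPG: over 1001 bases around the start it was 77.1% at CEBPA, 76.0% at CEBPB, 76.2% at CEBPD and 74.2% at CEBPG, against 52.7% at CEBPE.
CEBPG upstream: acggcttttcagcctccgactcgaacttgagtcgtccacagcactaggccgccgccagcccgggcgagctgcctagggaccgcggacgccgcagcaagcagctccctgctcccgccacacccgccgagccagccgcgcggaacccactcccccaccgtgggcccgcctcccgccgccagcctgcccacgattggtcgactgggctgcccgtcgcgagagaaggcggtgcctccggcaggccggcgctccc

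Most replicate 2 peaks of the CEBPG window lay away from the promoter. Replicate 2 held 17 peaks with 1192 tags, more than 91.1% of protein-coding windows, and covered 31.9% of the length. Replicate 1, whose list was much shorter, held 180 tags, more than 85.9% of the windows, and covered 2.52%. Of these, 14 peaks overlapped PEPD, the gene for the dipeptidase prolidase, which is transcribed towards CEBPG. They carried 1040 tags or 87.2% of those in the window, with scores of 56.1 to 859, and 6 were wider than 2 kb. The widest, chr19:33887363-33894551 (7189 bp), lay in a PEPD intron and held 263 tags. There were 0 replicate 1 peaks in this stretch, and 0 of the 14 peaks overlapped H3K4me3. Most of the replicate 2 tags of the CEBPG window thus lay over PEPD. A second CEBPG peak of replicate 2, with 17 tags and a score of 51.9, lay inside the gene with its middle 790 bp past the start.

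CEBPB (ENSG00000172216, chr20:48807367-48809205, plus strand) had tag counts near the middle of all protein-coding genes. Its replicate 1 peak, chr20:48781856-48783000, held 52 tags at a score of 71.3, close to the median of that list, and 61.3% of protein-coding windows had fewer replicate 1 tags. The replicate 2 peaks, 15 in number, held 13 to 28 tags each and 296 in all, a total that 49.1% of protein-coding windows were below. The shared interval, chr20:48781856-48782290, was the narrowest of the 5 with 435 bp. Its middle lay at -25294 bp from the CEBPB start, in an intron of the long noncoding RNA gene LINC01275 and 565 bp from its TSS, with 52 tags in replicate 1 and 21 in replicate 2. Over the CEBPB gene itself only replicate 2 had a peak, with 17 tags at a score of 59.4.

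CEBPE (ENSG00000092067, chr14:23586245-23589465, minus strand) resembled CEBPB in its counts. The replicate 1 peak, chr14:23563624-23565228, held 86 tags at a score of 52.6, and 11.0% of the list had a lower score. The shared interval, chr14:23563624-23564998, had its middle 25154 bp downstream of the CEBPE start and 34 bp from a TSS of ACIN1, the gene of the chromatin condensation factor acinus. The replicate 2 peak in it held 33 tags at a score of 62.7, and the summits lay 591 bp apart. By distance this interval thus belonged to ACIN1 and not to CEBPE. Replicate 2 had 11 peaks with 206 tags in the window, the lowest total of the 5 genes, and 1 of them, with 18 tags, lay over the gene. The sequence of this interval is not shown because its middle holds untranslated exon bases of ACIN1.

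CEBPD (ENSG00000221869, chr8:48649475-48650726, minus strand) had the replicate 1 peak with the highest score and fold enrichment of the 5 genes, and it was not met by replicate 2. This peak, chr8:48645464-48648473, held 254 tags and scored 281, with a 9.50-fold enrichment. Its middle lay 3758 bp downstream of the CEBPD start, in an intron of SPIDR, a DNA repair scaffold gene transcribed towards CEBPD. Of that list, 97.0% had a lower score and 98.4% had fewer tags. Replicate 2 had more peaks here than at any other C/EBP gene, 26, yet they were small. They held 14 to 46 tags with a median of 22, and 0 overlapped CEBPD itself. Most of them had their nearest TSS at SPIDR or at the neighbouring gene PRKDC and not at CEBPD. The nearest replicate 2 peaks flanked the site, with middles 7701 bp downstream (45 tags) and 2515 bp upstream (46 tags) of the gene start. CEBPD was thus the only one of the 5 genes at which no peak of one replicate touched a peak of the other.

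**Figure D2:**
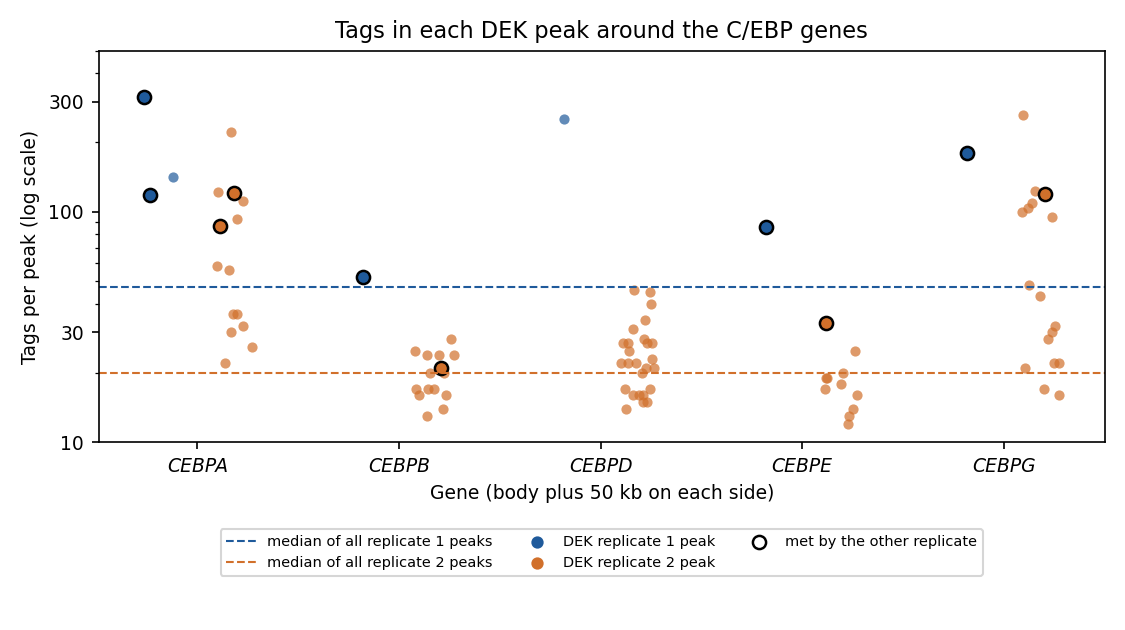
Tags in each DEK peak of the C/EBP windows on a log scale, by gene and replicate, with dashed lines at the median of all peaks of each replicate (47 and 20 tags). Outlined points met a peak of the other replicate. All 7 replicate 1 peaks lie above their median, and around CEBPA and CEBPG replicate 2 peaks reach 221 and 263 tags.

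Set side by side, the order of the genes by replicate 1 tags in the window was CEBPA (574), CEBPD (254), CEBPG (180), CEBPE (86) and CEBPB (52). By replicate 2 tags it was CEBPG (1192), CEBPA (1051), CEBPD (634), CEBPB (296) and CEBPE (206). CEBPA, CEBPD and CEBPG were above CEBPB and CEBPE in both replicates, and the order within each of these sets changed between replicates. With a single value per gene and replicate, neighbours in these orders could not be told apart. Tag totals also follow the different lengths of the lists, so the order was read only within a replicate.

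Read against all protein-coding genes, the presence of peaks was common. Every one of the 5 genes had a replicate 1 peak in its window, as did 52.6% of protein-coding genes, and all 5 had a replicate 2 peak, as did 96.8%. A shared interval was found for 4 of the 5 genes, against 28.0% of protein-coding genes and 22.8% of those of at most 15 kb, the size class of all C/EBP genes. With 5 members, 2 of which are neighbours, these shares describe the genes and were not tested. The count of 4 fell to 2 (CEBPE and CEBPG) when the overlap had to span 50% of both peaks, and to 1 (CEBPG) when both scores had to be 100 or more. Within 1 kb of a TSS, the distance at which the study set its boundary, 0 of 5 genes had the middle of a shared interval (4.38% of protein-coding genes), 0 of 5 that of a replicate 1 peak (8.45%), and 2 of 5, CEBPE and CEBPG, that of a replicate 2 peak (56.9%). No replicate 1 peak overlapped a C/EBP gene body. By the summed absolute difference of log2(tags + 1) over the 2 replicates, GSK3A and KSR1 were the closest to CEBPA (0.04 each), YTHDF3 (0.01) and SLC2A8 to CEBPB, ACER2 (0.02) and SNRPA1 to CEBPD, EIF4E (0.04) and CDK17 to CEBPE, and GGA3 and MIF4GD (0.03 each) to CEBPG. Between 25 and 67 genes lay within 0.2 of each, so the genes named here were not the only ones alike.

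**Figure D3:**
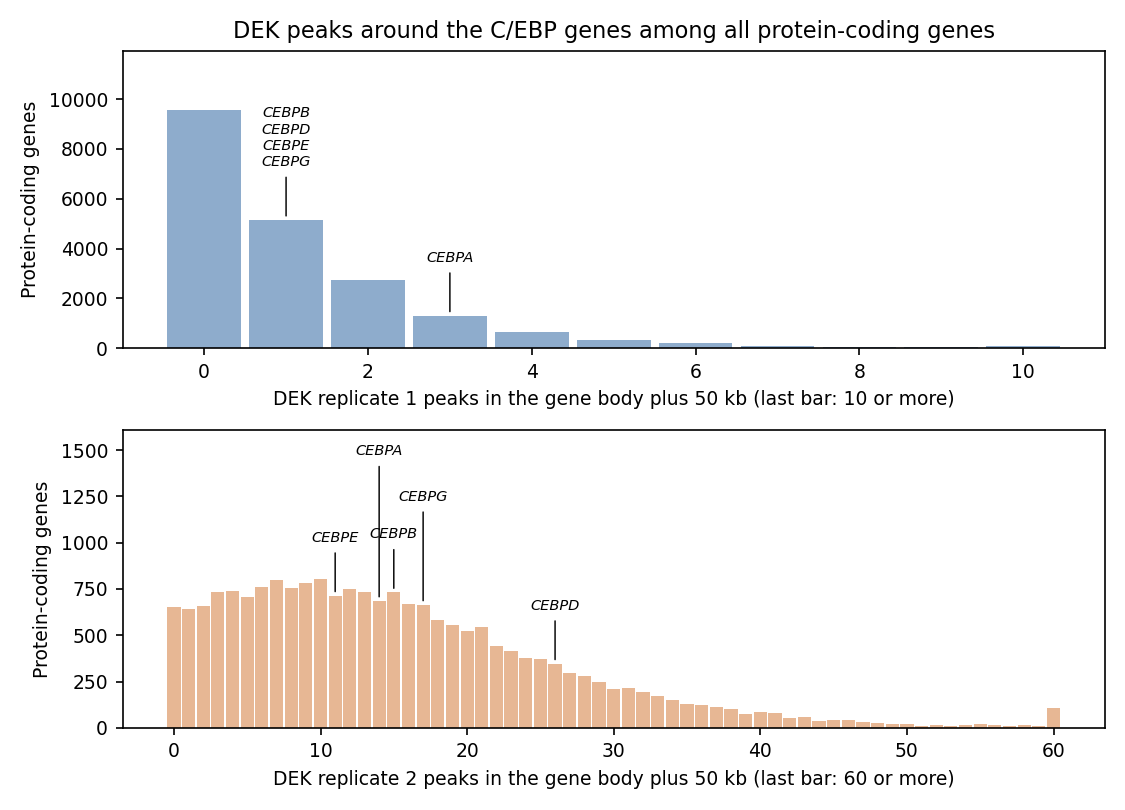
Number of protein-coding genes by the count of DEK peaks in the gene body plus 50 kb, for replicate 1 (top) and replicate 2 (bottom), with the C/EBP genes marked. CEBPA has 3 replicate 1 peaks and the other genes 1 each, while in replicate 2 the genes range from 11 (CEBPE) to 26 (CEBPD).

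As a set, the 5 shared intervals around the C/EBP genes had a higher median width and tag count than all shared intervals, but the CEBPB interval (435 bp, 52 and 21 tags) was below the medians of all. The median width was 1375 bp against 707 bp over all 4435, with 118 against 65 tags in replicate 1 and 87 against 30 tags in replicate 2. Median scores were 71.3 against 71.0 in replicate 1 and 162 against 88.0 in replicate 2. Their summits were further apart, with a median gap of 592 bp against 152 bp. Of the 7 replicate 1 peaks, 5 were met by replicate 2, against 27.4% of the list, and of the 83 replicate 2 peaks 5 were met by replicate 1, against 2.90%. The distal CEBPA interval was the only one of the 5 whose summits lay closer than the median gap.

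H3K4me3 was not used to choose the genes or the peaks. Its regions, given as positions without tags or scores, numbered 22 in replicate 1 and 13 in replicate 2 of these windows. At the starts of CEBPA, CEBPB, CEBPE and CEBPG a region was present in both replicates, 4 of 5 genes against 46.7% of protein-coding genes. At CEBPD, the region downstream of the gene ended 367 bp short of the gene in replicate 1 and 307 bp short of it in replicate 2. The DEK replicate 1 peak of CEBPD lay over this region, chr8:48645586-48649108 in H3K4me3 replicate 1, so mark and peak coincided although the gene body had neither. At the CEBPA gene the mark spanned chr19:33789135-33793594 in H3K4me3 replicate 1, and the 221-tag DEK replicate 2 peak overlapped it.

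All 7 DEK replicate 1 peaks around the C/EBP genes overlapped H3K4me3 in replicate 1. Of the whole list on the numbered chromosomes, X and Y, 7501 of 14930 peaks did so. In both replicates, 6 of the 7 C/EBP peaks overlapped the mark (85.7%, 95% Wilson interval 48.7% to 97.4%). The exception was the peak at the nearer CEBPA interval. Over the whole list, 32.9% of replicate 1 peaks overlapped the mark in both replicates. Wide peaks did so more often: among replicate 1 peaks at least as wide as the narrowest of these 7 (1145 bp), a background chosen after the data were seen, the share was 48.7%. Of the shared intervals, 4 of 5 overlapped the mark in both replicates (80.0%, 37.6% to 96.4%), against 33.7% of all shared intervals. Of the 83 replicate 2 peaks, 10 did (12.0%, 6.68% to 20.8%), against 7.74% of that list. Replicate 1 peaks and shared intervals in the C/EBP windows thus lay on H3K4me3 regions in larger shares than in the whole lists. These 2 shares are not separate, because each shared interval is part of a replicate 1 peak. Among the marked intervals, that of CEBPE lay 34 bp from an ACIN1 TSS and that of CEBPB 565 bp from a LINC01275 TSS. The parts of peak width and of neighbouring genes' start sites in these shares were not tested. The mark was also found without DEK, as at chr19:33757117-33760480 in H3K4me3 replicate 1, which no peak of either DEK list met. Of the 22 regions of H3K4me3 replicate 1, 7 were met by DEK replicate 1 and 11 by DEK replicate 2. The share of all H3K4me3 regions met by DEK is not given here, so these counts describe the windows only. The regions over the CEBPA, CEBPB and CEBPE starts were met by DEK replicate 2 and not by replicate 1.

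**Figure D4:**
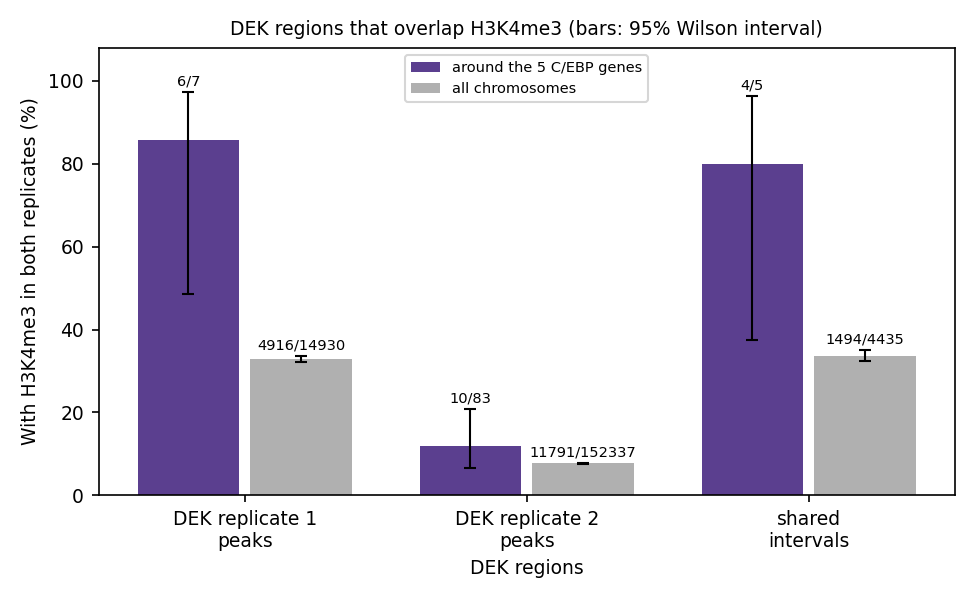
Percent of DEK replicate 1 peaks, replicate 2 peaks and shared intervals that overlap an H3K4me3 region in both replicates, around the C/EBP genes and on all chromosomes, with 95% Wilson intervals and counts above the bars. Shares around the C/EBP genes are 85.7%, 12.0% and 80.0%, against 32.9%, 7.74% and 33.7% in the whole lists, with wide intervals for the small counts.

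Genes that work with the C/EBP factors were given by role. Of 8 bZIP relatives, 3 had a shared interval in the window: DDIT3, which encodes the C/EBP family member CHOP, with 2, and BATF and DBP with 1 each. DDIT3 was the relative with a shared middle within 1 kb of a TSS. Of 4 partners and regulators, RUNX1, a core hematopoietic factor, had 7 shared intervals in a gene of 1216868 bp, while SPI1, the gene of the C/EBPα partner PU.1, and TRIB1 and TRIB2, whose products direct C/EBPα to degradation, had 0. Of 18 myeloid genes known as C/EBP targets, 8 had a shared interval, among them CSF1R with 2, and MPO, CD14 and S100A9 with 1 each, and the interval of S100A9 lay within 1 kb of a TSS. Of the 7 AP-1 genes, which also encode bZIP factors, 4 had a shared interval, with JUNB at 4 and FOSB at 3, and 0 had one within 1 kb of a TSS. The share of genes with a shared interval was 37.5% of the relatives, 25.0% of the partners, 44.4% of the targets and 57.1% of the AP-1 genes, beside the 28.0% of all protein-coding genes given above. Windows were counted gene by gene, so an interval inside overlapping windows of neighbouring genes counted for each of them. The difference between the C/EBP genes and these lists was not tested.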

How the data were processed

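DEK and H3K4me3 ChIP-seq lists of U937 cells were analysed, 2 replicates each. Per the labels and the study's methods, the authors aligned reads to hg19 with Bowtie2 and used MACS 1.4.1, with a separate list for each DEK precipitation. The study names non-precipitated chromatin as its negative control. The lists deposited by the authors give the tag count of each peak without normalization, a score (−log10 p multiplied by 10), the fold enrichment (a ratio over the local background of MACS) and the false discovery rate as a percent. How the H3K4me3 regions were called is not given in the sources used here.

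Peaks were intersected by at least 1 bp (bedtools 2.31.1 gave the same number of intersections as the scripts) and assigned to genes of GENCODE release 44 on GRCh37. Distances run from the middle of an interval or peak to the gene start, or to the nearest TSS. Scripts ran under Python 3.11.15 with Matplotlib 3.10.9, Numba 0.67.0, SciPy 1.17.1, pandas 2.3.3 and NumPy 2.4.6, and passed 122 of 122 known-answer checks when tested on simulated data. Shares have 95% Wilson intervals, which cover counting error only. They treat peaks as independent although peaks of the same window are neighbours, and they were not used as a test. Sequences were read from the GRCh37 genome, and the middles of the CEBPG and CEBPB intervals are not reported here.

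Named genes were the 5 members, the gene with the nearest TSS at each shared interval, fixed lists by role with up to 4 examples each, and the 2 genes most alike in tags to each member. Genes in which other peaks lay (PEPD, SPIDR, PRKDC) were named after their values were seen. The members and lists were chosen with earlier results of these data known. Alternatives were other windows, a larger overlap, a higher score, lists of equal length, other distances and each replicate alone.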

Additional observations from a re-analysis of the deposited data

How the results depend on the processing

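The counts around the C/EBP genes depended on how a shared interval was defined. Instead of 4 genes with 5 shared intervals, requiring the overlap to span 50% of both peaks left 2 genes with 2 intervals (CEBPE and CEBPG), requiring scores of 100 or more in both left 1 gene with 1 interval (CEBPG), a replicate 2 list shortened to the length of the replicate 1 list left 2 genes with 3 intervals (CEBPA and CEBPG), and windows of 10 kb left 1 gene with 1 interval (CEBPG). CEBPG was the gene with a shared interval under every one of these definitions. Taking each replicate alone gave 7 to 83 peaks in place of shared intervals, and 0 to 2 genes with one within 1 kb of a TSS. Measuring to the nearest edge in place of the middle gave 1 gene (CEBPG). Windows of 10 kb held 3 replicate 1 and 24 replicate 2 peaks, windows of 100 kb held 11 and 143, and a score of at least 100 left 2 and 27. The share of protein-coding genes with a shared interval was 22.8% for genes of at most 15 kb, 15.7% with windows of 10 kb and 40.1% with windows of 100 kb. The number of shared intervals on H3K4me3 was 4 or 5 under its alternatives. Leaving out an H3K4me3 replicate could only keep or raise this number, and no alternative changed the definition of a shared interval. The values are thus no measure of how stable the number is. Of 33 alternatives for 7 results, 13 were labelled as the same and 20 as moved. The 13 include counts of 6 (windows of 100 kb) and 7 (replicate 1 peaks alone) in place of 5 shared intervals. They also include counts of genes in which peaks of a single list replaced shared intervals. No paired analysis was possible because no result came from a test between groups. The small number of genes and of replicates limits the precision of every share, and the lists give no depth.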
